A study of Astatotilapia calliptera with 66 samples.

Results

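The littoral-private CG sites are 386 single cytosines at which liver DNA of littoral cichlids carried a methylation level apart from that of both other populations in the study. They were chosen from 135040 CG sites on 22 linkage groups, out of 151900 sites in the table, by 1 rule. The mean of the littoral fish had to differ from the benthic mean and from the riverine mean by at least 20 percentage points, in the same direction. The differences between littoral fish and each other population therefore chose the sites and are given as a description. Calls of a model for these differences are given only to set their size beside the spread between fish. The fish were wild-caught adult males of the cichlid Astatotilapia calliptera, and each library came from the liver of a single fish. The littoral group (12 fish) is the ecomorph of the shallow, well-oxygenated shore of the crater Lake Masoko, the benthic group (12 fish) is the ecomorph of its deep, oxygen-poor water, and the riverine group (11 fish) came from the neighbouring Mbaka River. All fish were sampled without treatment, so habitat, diet, genotype and history in the wild go with the population and cannot be told apart.

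In vertebrates, DNA methylation is placed on cytosines that are followed by a guanine (CG sites) by DNA methyltransferases, and it is removed by loss at replication or by oxidation through Tet enzymes. Most CG sites of a vertebrate genome are methylated, while those in CG-rich promoters of active genes mostly are not. Sites at an intermediate level are found where cells of a tissue, or the maternal and paternal copies of the chromosome, differ in methylation. Reduced-representation bisulphite sequencing (RRBS) cuts DNA at CCGG and reads the fragment ends after bisulphite treatment, which turns unmethylated cytosines, but not methylated ones, into bases read as thymine. The methylation level used here is the percentage of reads at a site that kept a cytosine. A change in every cell and a change in the share of cell types give the same level in a piece of liver and cannot be told apart.

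RNA of 13 of the same livers was compared with markers of the labelled tissue, of which 4 of 11 for hepatocytes were found by symbol. Transcripts of fgb and fgg, the beta and gamma chains of fibrinogen made by hepatocytes, were at 5683 TPM or more in every fish, and tf (transferrin) was at 4479 TPM or more. The fourth, fabp1, a fatty acid binding protein of the liver, ranged from 27.1 to 173 TPM. Of the marker genes listed for other cells, 5 of 6 for leukocytes were found by symbol, and their summed level was 126 to 501 TPM in 4 littoral, 158 to 1779 TPM in 5 benthic and 104 to 223 TPM in 4 riverine livers. Most of this sum was cd74. The 3 of 6 muscle markers found, of which myoglobin (mb) makes up nearly all, summed to 6.81 to 10.9 TPM in littoral, 14.1 to 62.7 TPM in benthic and 40.8 to 119 TPM in riverine livers. The 1 pancreas marker of 7 found, cpb1, ranged from 443 to 1620 TPM in littoral, from 134 to 663 TPM in benthic and from 156 to 2068 TPM in riverine livers. The 2 of 6 erythroid markers found summed to 0.0740 to 2.50 TPM in littoral, 0.0819 to 0.518 TPM in benthic and 0.917 to 12.4 TPM in riverine livers. Of these, epb41 was at 0.324 TPM at most, so the sum mostly follows gata1, which was itself low. The paper reports other genes of red cells, among them Eklf, EpoR and hemoglobin subunit genes, as more active in benthic than in littoral livers. The erythroid sum is therefore not read as a share of red cells. Summed muscle markers did not overlap between littoral livers and those of the other populations. Summed erythroid markers did not overlap between benthic and riverine livers. The share of all genes without overlap was not computed, so nothing is read from this. Labels of the RNA libraries hold the same number in all benthic livers, another in all riverine livers and both among littoral livers. Columns with the benthic number also carry a mark of read trimming. A difference between benthic and riverine RNA therefore cannot be told apart from these label differences. The part of these cells in the methylation levels was not tested.

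Of the 386 sites, 283 (73.3%) were less methylated in littoral fish than in both other populations and 103 were more methylated. The members are 0.286% of the linkage-group sites. By the same rule 4371 sites were private to benthic fish, 16.3% of them with the lower level there, and 2292 were private to riverine fish, 63.1% of them with the lower level there. At the littoral-lower sites the median of the population means was 39.5% in littoral, 71.9% in benthic and 76.8% in riverine fish. At the littoral-higher sites it was 63.1% in littoral, 32.8% in benthic and 26.1% in riverine fish. Over each set of sites the benthic median lay between the littoral and the riverine median, and nearer to the riverine one. The rule keeps benthic means at least 20 points from littoral means and sets no distance from riverine means, so nothing is read from this. The order varied by site: benthic means were above riverine means at 124 of 283 littoral-lower and 73 of 103 littoral-higher sites. At single members the benthic and riverine means differed by a median of 8.93 points in either direction, against 2.14 points over all linkage-group sites. Among linkage-group sites with a mean over all fish of 20 to 80%, this median was 17.6 points.

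**Figure D1:**
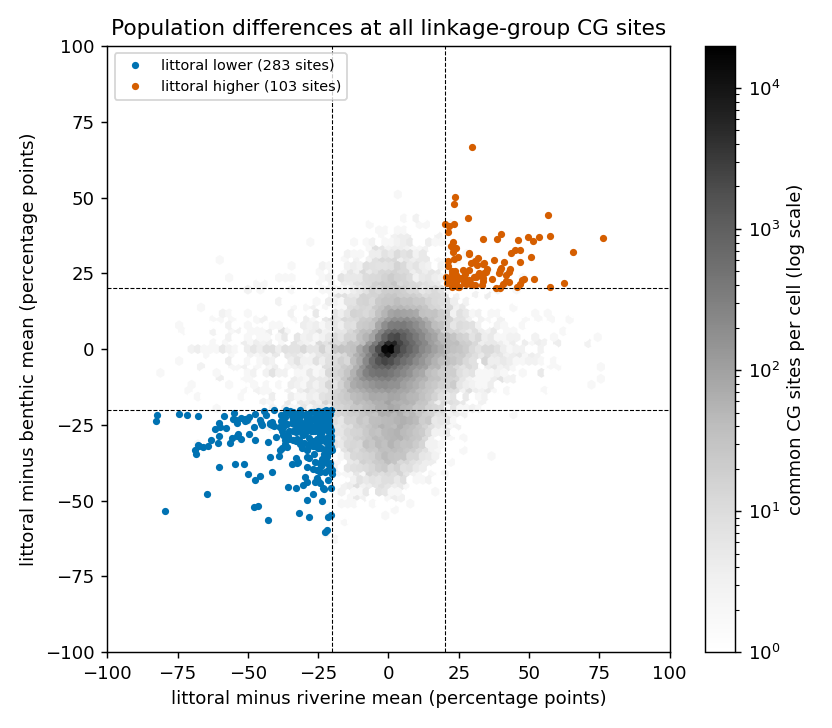
Littoral minus riverine mean (horizontal, percentage points) against littoral minus benthic mean (vertical, percentage points) at the 135040 linkage-group CG sites, with grey cells shaded by the number of sites on a log scale. Dashed lines mark 20 points, and the coloured points outside them are the 283 sites with the lower and the 103 sites with the higher level in littoral fish.

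The smaller of the 2 differences, which decides membership, had a median of 23.8 points over the members. It was under 25 points at 237 sites, at least 30 points at 56, at least 40 points at 10, and 53.4 points at most. Most members therefore lie near the threshold. The 2 sites just inside it on the lower side, NC_036797.1:20586663 and NC_036780.1:2702312, had smaller differences of -20.04 and -20.05 points. Just outside lay NC_036801.1:36085018 and NC_036787.1:9069757, with -19.98 and -19.95 points. On the higher side, NC_036786.1:1058097 and NC_036796.1:18291971 were just inside with 20.16 points each, and NC_036788.1:10623577 and NC_036783.1:23265625 were just outside with 19.98 and 19.97 points. The sites on either side of the threshold are alike in size. When each of the 35 fish was left out in turn, 185 members met the rule every time and 201 were lost at least once.

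The members were mostly sites of intermediate and variable methylation. Averaged over all fish, 89.6% of them lay between 20 and 80%, against 12.4% of all linkage-group sites. The SD between fish at a member had a median of 25.4 points in littoral, 23.3 in benthic and 20.2 in riverine fish, against 6.50, 6.51 and 6.42 points over all linkage-group sites. Among the 16687 linkage-group sites with a mean between 20 and 80%, the median SD was 19.6 points in littoral, 19.1 in benthic and 17.2 in riverine fish. The spread of the members was thus nearer to that of other intermediate sites than to that of all sites, and above both. The littoral SD was the largest of the 3 at 192 members (49.7%), against 33.2% of all linkage-group sites. This share was not computed for the intermediate sites. A rule on differences of means is met more easily by sites of large spread, so nothing about the members is read from these values.

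Most members did not separate the populations fish by fish. Halfway between the littoral mean and the nearer of the other means, a median of 9 of the 12 littoral fish lay on the littoral side, with 4 fish at the least. All 12 did so at 3 members. At 3 members every littoral fish lay beyond every benthic fish, against 0.0118% of all linkage-group sites. At 12 members every littoral fish lay beyond every riverine fish, against 0.0600% of all linkage-group sites. No overlap with any fish of both populations was found at 0 members and at 0% of all linkage-group sites. Since these contrasts chose the members, nothing is read from the shares. Most single values at the members were neither low nor high, with 66.2% of those of littoral, 62.8% of those of benthic and 56.8% of those of riverine fish between 10 and 90%. At the littoral-lower sites 24.1% of values of littoral fish were under 10% and 9.36% were over 90%, against 5.62% and 31.9% in benthic and 3.82% and 36.7% in riverine fish. At the littoral-higher sites 7.20% of values of littoral fish were under 10% and 27.6% over 90%, against 29.2% and 7.20% in benthic and 44.3% and 6.09% in riverine fish.

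**Figure D2:**
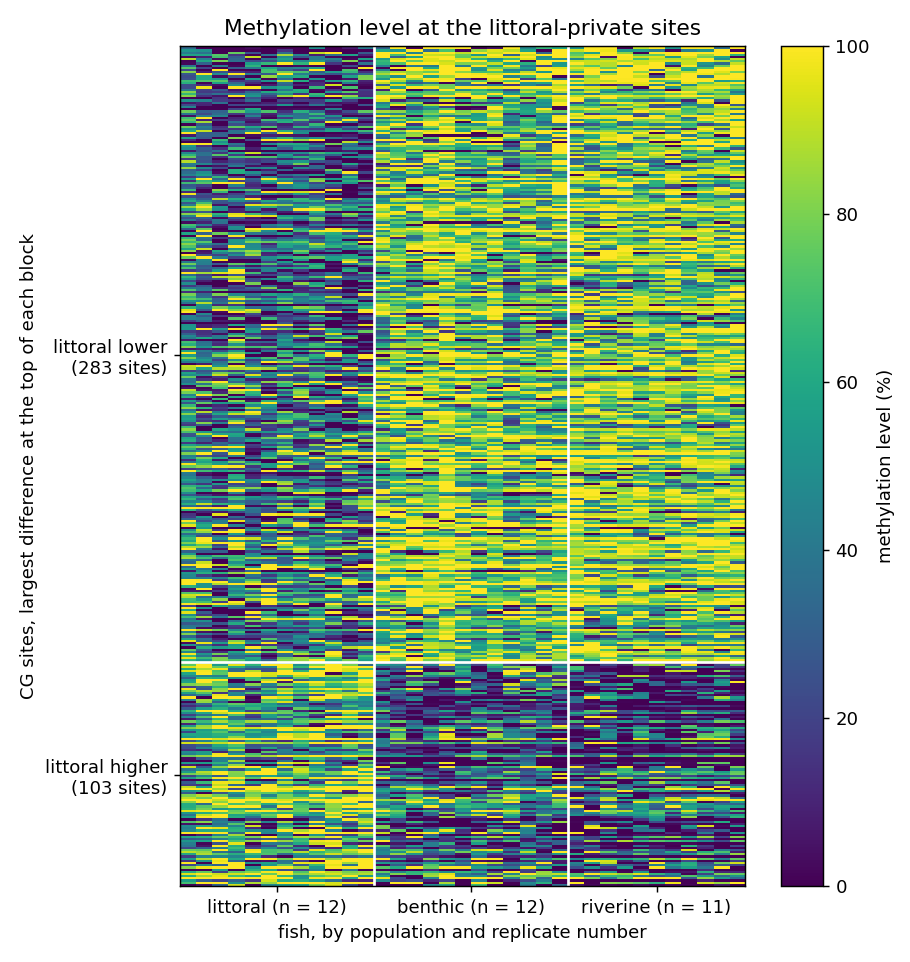
Methylation level (colour, %) of each fish (columns: 12 littoral, 12 benthic and 11 riverine fish, in order of replicate number) at each of the 386 littoral-private sites (rows). The 283 littoral-lower sites are above the white line and the 103 littoral-higher sites below it, and single fish of every population depart from the colour of their group.

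Of the sites with the lower level in littoral fish, the one with the largest smaller difference was NC_036781.1:22091827. Levels there had a lowest, median and highest value of 0, 0 and 82.4% in littoral fish, 0, 82.6 and 100% in benthic fish, and 70.6, 100 and 100% in riverine fish. Means were 14.4 ± 26.6% in littoral (SD, n = 12), 67.9 ± 35.9% in benthic (SD, n = 12) and 93.7 ± 11.0% in riverine fish (SD, n = 11). Most littoral fish were at 0%, 2 of them reached 51.8 and 82.4%, and 2 benthic fish were as low as 0 and 5.26%. NC_036783.1:1995231 averaged 11.2 ± 18.5% in littoral, 58.9 ± 41.9% in benthic and 75.5 ± 34.9% in riverine fish, and each of the other populations ran from 0 to 100%. NC_036800.1:30401648 averaged 9.79 ± 19.8% in littoral, 61.9 ± 35.4% in benthic and 57.5 ± 36.8% in riverine fish, with the same full range outside the littoral fish. At both sites littoral fish had a median of 0% and a highest level of 49.4 and 52.1%, so littoral fish were absent from the upper part of the scale. The nearest common sites of the members named here lay 11, 14 and 31 bp away. In the same order, the smaller difference there, counted in the direction of the member, was 5.14, -1.83 and 0.978 points. A cytosine lost to a C-to-T variant is read as unmethylated, and genotypes at the sites were not analysed.

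At 4 others of the 8 lower sites with the largest differences, littoral fish spread over most of the scale while the other populations were mostly high. NC_036791.1:15190658 had a littoral mean of 41.3 ± 25.8%, against 82.6 ± 29.3% in benthic and 91.3 ± 6.10% in riverine fish. At NC_036793.1:37721494 the means were 40.6 ± 27.6% in littoral, 83.9 ± 22.2% in benthic and 88.2 ± 13.5% in riverine fish. NC_036798.1:2416624 had means of 34.1 ± 28.1% in littoral, 76.1 ± 21.97% in benthic and 79.7 ± 18.2% in riverine fish. In these 3 the benthic and riverine means were within 9 points of each other. NC_036783.1:2105225 averaged 36.4 ± 35.7% in littoral, 88.2 ± 23.2% in benthic and 82.9 ± 31.1% in riverine fish. The remaining site, NC_036785.1:12962044, averaged 26.5 ± 30.6% in littoral, 82.9 ± 24.0% in benthic and 69.3 ± 36.7% in riverine fish. Between 9 and 10 of 12 littoral fish lay on the littoral side of the midpoint at each of the 8 sites. The nearest common site of NC_036793.1:37721494, 35 bp away, was a member with a smaller difference of 34.5 points in the same direction. At the others named here the nearest common site, 6 to 13 bp away, had -3.45 to 0.688 points.

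Of the sites with the higher level in littoral fish, NC_036798.1:2587234 had the largest smaller difference. Its lowest, median and highest levels were 36.8, 67.7 and 87.5% in littoral, 0, 3.64 and 52.8% in benthic, and 0, 0 and 64.0% in riverine fish. Every littoral fish was methylated there, while most riverine fish were at 0%. Means were 63.1 ± 17.1% in littoral, 18.9 ± 23.0% in benthic and 6.32 ± 19.2% in riverine fish. NC_036791.1:6960010 had the widest span between populations, with means of 82.0 ± 30.8% in littoral, 45.5 ± 34.5% in benthic and 5.61 ± 9.73% in riverine fish. Its littoral median was 100%, and 1 or more littoral fish were at 0%. NC_036786.1:30502344 averaged 82.3 ± 22.5% in littoral, 45.2 ± 32.9% in benthic and 24.9 ± 25.8% in riverine fish, and NC_036793.1:36939215 averaged 67.7 ± 32.0% in littoral, 32.1 ± 34.5% in benthic and 16.4 ± 22.9% in riverine fish. At these sites benthic fish held a middle place. The nearest common site of NC_036798.1:2587234, 8 bp away, had a smaller difference of 4.24 points in the direction of the member. That of NC_036786.1:30502344, 2 bp away, was a member with 37.0 points. For NC_036793.1:36939215 it had -8.08 points at 14 bp, and for NC_036791.1:6960010 it had -1.58 points at 2636 bp.

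At 3 other higher sites the benthic and riverine means were within 3 points of each other. NC_036798.1:22925474 averaged 78.0 ± 22.9% in littoral, 39.9 ± 26.9% in benthic and 37.8 ± 39.4% in riverine fish. NC_036789.1:2785630 averaged 79.6 ± 23.0% in littoral, 43.3 ± 28.0% in benthic and 41.0 ± 31.3% in riverine fish. NC_036798.1:13383602 averaged 68.4 ± 42.2% in littoral, 32.3 ± 34.7% in benthic and 34.7 ± 39.2% in riverine fish, and the levels ran from 0 to 100% in each population, so that fish of every population overlapped there. In the order named, the nearest common sites of these 3 lay 5, 89 and 39 bp away. Their smaller differences, counted in the direction of the member, were 18.5, -9.80 and -2.36 points. The eighth, NC_036786.1:1739119, is part of the largest stretch of members described next.

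Members lay close together in part. With gaps of at most 1 kb, the 386 members formed 265 groups, of which 205 were a single site and 60 were stretches of 2 or more sites. The stretches held 181 members (46.9%), 32 of them with 2 members, 16 with 3 and 12 with 4 or more. They were short, with a median span of 32.5 bp and 287 bp at most, so sites of a stretch can share reads and are not independent measurements. The share in stretches was not computed for other sets of sites, so the closeness is not read as a trait of the members. No stretch held members of both directions. The littoral level was lower in 48 stretches and higher in 12, and among those with 4 or more members it was lower in 6 and higher in 6. Of 68 common sites inside the stretches that were not members, 64 had a difference in the same direction and 44 had one of at least 10 points. Such sites can share reads with the members, and the shares over all linkage-group sites were not computed. Nothing is read from these counts.

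The largest stretch held 13 members among 19 common CG sites at NC_036786.1:1739111-1739397, with the higher level in littoral fish. The mean level per fish over the 19 sites had a lowest, median and highest value of 17.6, 34.5 and 54.6% in littoral, 3.91, 11.9 and 31.7% in benthic, and 0.736, 2.64 and 13.2% in riverine fish. Every littoral fish lay above every riverine fish, and 8 of 12 lay above every benthic fish. The population means were 36.4 ± 12.2% in littoral (SD, n = 12), 13.4 ± 9.12% in benthic (SD, n = 12) and 3.45 ± 3.51% in riverine fish (SD, n = 11). Across its sites the member with the largest smaller difference, NC_036786.1:1739119, had 54.4 ± 16.5% in littoral, 18.5 ± 13.8% in benthic and 8.28 ± 4.53% in riverine fish. The 6 sites that were not members kept the same order of the populations, and the next common site, 324 bp from the first, had 17.0 ± 15.1% in littoral, 9.57 ± 10.4% in benthic and 0.353 ± 0.957% in riverine fish. The order of the populations was the same at all 20 of these sites, while the size of the difference was not. The rule put littoral fish highest at the 13 members, and sites this close can share reads. Nothing is therefore read from this count.

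**Figure D3:**
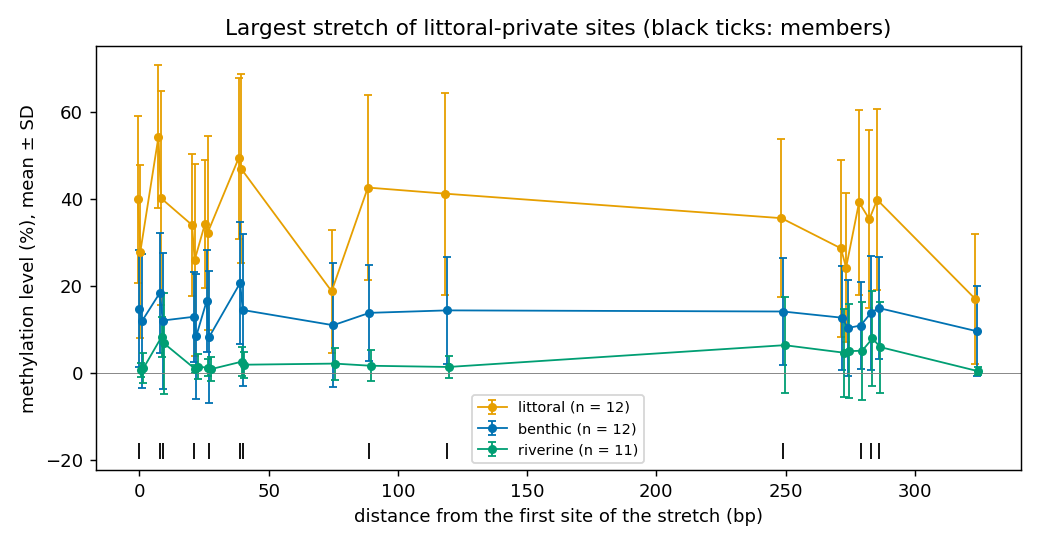
Mean methylation level (%, error bars SD between fish) of littoral (n = 12), benthic (n = 12) and riverine fish (n = 11) against the distance in bp from the first site of the largest stretch, with black ticks under the 13 members. Littoral means lie above benthic means and these above riverine means at each site shown.

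Other stretches were less even between fish. Over the 9 common sites of NC_036782.1:5038647-5038769 (7 members), the lowest, median and highest fish had 3.13, 56.5 and 98.8% in littoral, 8.75, 26.1 and 51.8% in benthic, and 3.06, 11.7 and 86.4% in riverine fish. Over NC_036796.1:10548545-10548591 (6 members of 6 common sites) they had 0, 18.5 and 81.8% in littoral, 0, 2.09 and 32.8% in benthic, and 0.355, 1.842 and 8.33% in riverine fish. In both stretches some littoral fish were as low as the other populations and others were high, with SDs of 36.0 and 29.6 points between littoral fish. At NC_036788.1:17163057-17163098 (5 members) the means were 59.3 ± 27.9% in littoral, 34.5 ± 36.1% in benthic and 23.9 ± 24.9% in riverine fish.

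Of the stretches with the lower level in littoral fish, NC_036794.1:12365280-12365332 had 7 members among 11 common sites. Its lowest, median and highest fish had 7.13, 18.2 and 62.2% in littoral, 16.0, 56.9 and 99.3% in benthic, and 18.0, 46.3 and 60.9% in riverine fish, and 6 littoral fish lay below every other fish of either population. At NC_036794.1:844565-844615 (5 members) the means were 54.0 ± 23.2% in littoral, 78.2 ± 9.95% in benthic and 84.1 ± 10.9% in riverine fish. NC_036797.1:374032-374235 (5 members) had 44.1 ± 19.3% in littoral, 66.6 ± 10.3% in benthic and 73.7 ± 18.2% in riverine fish. In these 2 stretches the littoral SD was larger than the benthic SD. NC_036796.1:34351775-34351855 (5 members) had 47.8 ± 29.2% in littoral, 69.9 ± 24.3% in benthic and 90.3 ± 5.83% in riverine fish, and 11 of 12 littoral fish lay below every riverine fish.

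**Figure D4:**
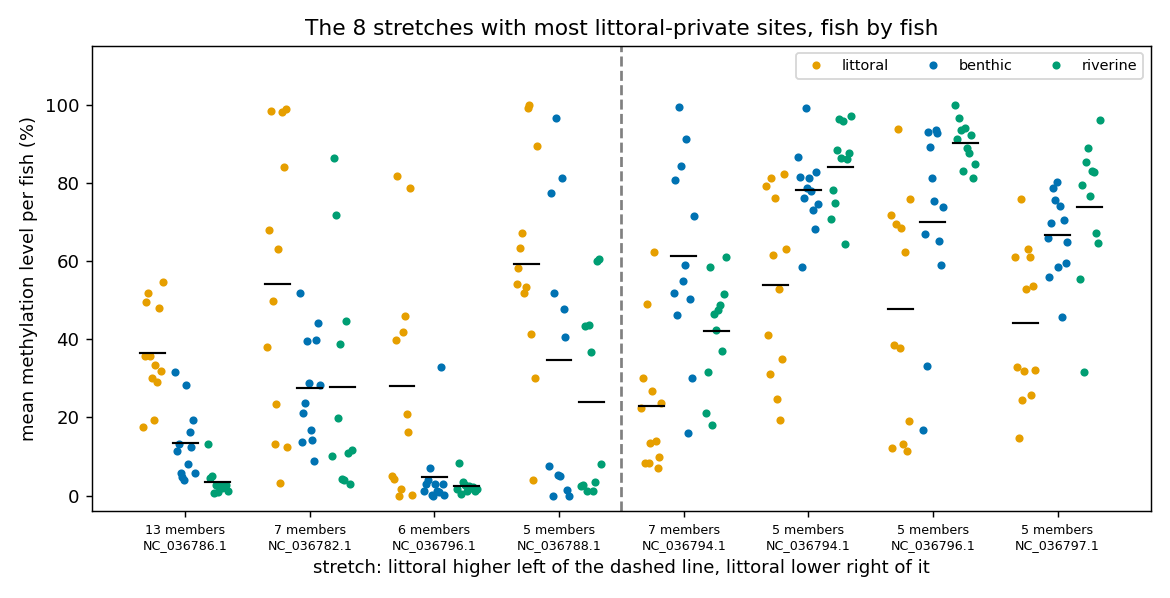
Mean methylation level per fish (%, over all common sites of a stretch) in the 8 stretches with most members, with littoral, benthic and riverine fish from left to right in each and the population mean as a black bar. The stretch with 13 members is the most even among littoral fish (17.6 to 54.6%), while in that with 7 members beside it littoral fish run from 3.13 to 98.8%.

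A stretch on NC_036794.1, chosen here after its values were seen, held the 3 members at which littoral and benthic fish did not overlap. They span 17 bp and can share reads. Over all linkage-group sites, 16 (0.0118%) had no overlap between these populations. At NC_036794.1:28223143 the lowest, median and highest levels were 0, 17.2 and 51.4% in littoral, 52.5, 71.4 and 100% in benthic, and 15.4, 50.0 and 100% in riverine fish. The means at the 3 sites were 19.4 to 21.8% in littoral, 73.6 to 77.0% in benthic and 40.9 to 51.3% in riverine fish, so riverine fish were in the middle and overlapped both.

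Single members differed from stretches in their surroundings. Of the 205 lone members, 165 had another common site within 50 bp, and the smaller difference at that neighbour, counted in the direction of the member, had a median of 1.66 points. It was under 5 points at 100 of these neighbours and at least 10 points at 40. Of the members in stretches, 130 had a site within 50 bp that was not a member, where the median was 15.6 points and 90 had at least 10 points. This contrast follows in part from the way stretches are formed and was not tested. Some common positions are adjacent. Such a pair can be the 2 strands of a CG or 2 neighbouring CG sites, and these were not told apart without the sequence. The adjacent position was listed for 45 members, and it was a member itself for 18 of them. The difference there had a median of 17.5 points and ran from -11.3 to 37.9 points, with at least 10 points for 27. Adjacent positions thus did not always give the same difference.

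Each fish was placed on a scale from 0 (the mean of the benthic and riverine means) to 1 (the littoral mean), averaged over the members. Littoral fish ran from 0.597 to 1.27, benthic fish from -0.229 to 0.370 and riverine fish from -0.159 to 0.0308. These places rest on sites chosen with the same fish. With the sites chosen again without the fish to be placed (369 to 494 sites), littoral fish were at 0.294 to 0.872, with a mean of 0.651 ± 0.144 (SD, n = 12). Benthic fish were then at -0.0683 to 0.516, with a mean of 0.177 ± 0.161 (SD, n = 12), and riverine fish at -0.0627 to 0.221, with a mean of 0.0853 ± 0.0857 (SD, n = 11). All 12 littoral fish were above every riverine fish and 10 were above every benthic fish. Each of these places rests on its own set of sites and its own scale, so the ranks between fish are a description. In that description the lowest littoral fish lay above all but 1 benthic fish. The mean of 0.651 is a share of the difference between the remaining fish, which the rule chose to be large. It is not used as support for the sites.

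**Figure D5:**
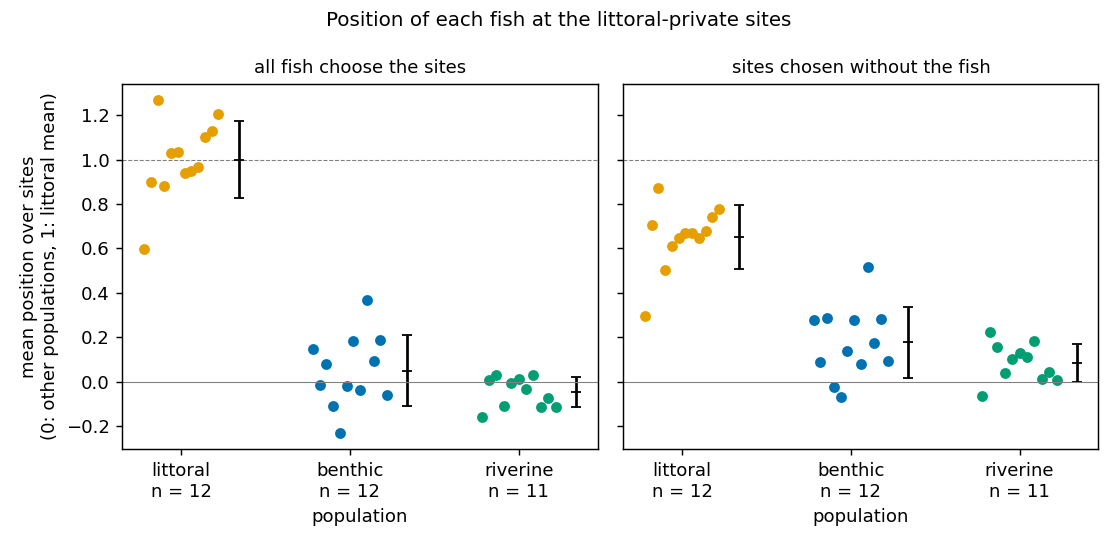
Mean position of each fish over the littoral-private sites (0 is the mean of the other 2 populations, 1 the littoral mean), with all fish choosing the sites on the left and with the sites chosen without the fish on the right. Points are fish, and black bars give mean ± SD for littoral (n = 12), benthic (n = 12) and riverine fish (n = 11). Littoral fish average 1 on the left and 0.651 on the right.

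The lowest littoral fish was replicate 1 in both cases, at 0.597 and 0.294, and it was the lowest at the lower sites (0.601) and at the higher sites (0.587). The highest was replicate 3, at 1.27 and 0.872. Across the 12 littoral fish the place on the lower sites and that on the higher sites had Pearson's r = 0.55 and Spearman's rho = 0.44, and r was 0.37 without the 2 fish farthest from the median. Among benthic fish, replicate 9 was nearest to the littoral fish at 0.370 and 0.516. The littoral places moved with depth: against the log10 number of mapped reads, r was -0.72 and rho -0.73 over the 12 littoral fish, and r was -0.65 without the 2 fish of most extreme depth. With the sites chosen without the fish, r was -0.48, rho was -0.44 and r without those 2 was -0.27. In the other populations r was 0.30 (benthic, n = 12) and 0.15 (riverine, n = 11) for sites chosen by all fish. At sites chosen by all fish, littoral fish with more reads thus lay closer to the other populations. The relation was weaker at sites chosen without the fish. The part of depth in the choice of sites was not tested. Among fish with at least 6000000 mapped reads (8 littoral, 11 benthic and 11 riverine), 407 sites met the rule, of which 244 were among the 386. This filter leaves out 4 littoral fish and 1 benthic fish. With log10 mapped reads regressed out in all fish, 373 sites met the rule, of which 331 were among the 386.

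The smaller difference at a member had a median of 23.8 points, beside a median SD of 25.4 points between littoral fish. Calls of a model depend on this, but also on the number of fish and on the adjustment over all sites. In a limma fit over all 147188 sites that varied, with Benjamini-Hochberg adjustment and at least 20 points asked for, 105 members (27.2%) were called between littoral and benthic fish, against 2.05% of all tested sites. Between littoral and riverine fish 110 members (28.5%) were called, against 0.751% of all tested sites. Both contrasts were called at 41 members (10.6%), against 0.0292% of all tested sites. Of these 41 members, 26 were lower in littoral fish, against 0.0183% of all tested sites, and 15 were higher, against 0.0109%. Since these contrasts chose the members, nothing is read from the difference to the background. The 41 sites lay on 15 linkage groups, 28 of them in 11 stretches and 12 in the largest stretch alone, and 13 were single. On a logit scale the count in both contrasts was 21 members (5.44%), against 0.0149% of all tested sites. With log10 mapped reads as a covariate it was 31 (8.03%), against 0.0224%. Among fish with at least 6000000 mapped reads, which are fewer, it was 13 (3.37%), against 0.0102%. Among those fish 38 members were called between littoral and benthic fish, against 0.803% of all tested sites.

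Benthic and riverine fish were compared at the same sites. The rule does not name this contrast, but it is the difference of the 2 contrasts that chose the members, so it is not independent of the choice. The limma fit called 14 members (3.63%), against 4.07% of all tested sites, and nothing about the members is read from these shares. Benthic fish were higher at 6 of the 14, a direction called at 3.26% of all tested sites. The means of benthic and riverine fish were at least 20 points apart at 74 members (19.2%), against 6.43% of all linkage-group sites and 44.1% of those with a mean between 20 and 80%. The benthic mean was above the riverine mean at 197 of the 386 members and at 79813 of the 135040 linkage-group sites. Of the 16 sites with the largest differences, 1 was called here. At NC_036791.1:6960010 benthic fish were higher than riverine fish by 39.9 points (standard error 11.3, limma adjusted p = 0.0313).

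Chosen after their values were seen, the members with the lowest adjusted p in this contrast were 2 of the 3 members of a stretch on NC_036796.1. The stretch spans 28 bp, so its sites can share reads and are not separate results. At NC_036796.1:31286834 means were 9.66% in littoral, 31.6% in benthic and 92.0% in riverine fish, and the benthic minus riverine difference was -60.5 points (standard error 6.34, limma adjusted p = 1.05e-07). At NC_036796.1:31286861 means were 4.44% in littoral, 28.3% in benthic and 86.9% in riverine fish, with a difference of -58.7 points (standard error 7.55, limma adjusted p = 4.19e-06). At these sites both lake ecomorphs were below riverine fish and littoral fish were the lowest. The order was another at NC_036797.1:5350866, also chosen after its values were seen, where benthic fish were the highest. Means there were 16.7% in littoral, 77.1% in benthic and 39.4% in riverine fish, with a benthic minus riverine difference of 37.7 points (standard error 9.85, limma adjusted p = 0.0166).

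Members lay on all 22 linkage groups. Their share of the common sites ran from 0.0519% on NC_036795.1 (3 members) to 0.559% on NC_036788.1 (21 members), with 0.525% on NC_036796.1 (31 members) and 0.450% on NC_036786.1 (46 members). The last number includes the 13 members of the largest stretch. Counting each stretch once, the linkage groups held 0.519 to 3.99 groups per 1000 common sites, with NC_036795.1 and NC_036788.1 again at the ends. A member had a median of 3 other common sites within 100 bp, against 4 over all linkage-group sites. Coordinates are 1-based positions on the Maylandia zebra assembly UMD2a. The genes near the sites were not assigned, since an annotation of that assembly was not used here.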

How the data were processed

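RRBS of 35 livers and RNA-seq of 13 of the same livers were analysed, and WGBS libraries were not analysed here. The authors trimmed the RRBS reads with Trim Galore, aligned them to the M. zebra UMD2a genome with Bismark. Their deposited values are, for every CG site shared by all fish, the percent of its reads that were methylated, and they were not normalized. Column names carry the mark cov4, which is taken as a read minimum. The files give no reads per site, so depth is unknown for each value and no counting interval could be computed. A cytosine that a fish lacks through a C-to-T variant is read as unmethylated, and genotypes were not analysed here. The authors quantified RNA with kallisto and deposited TPM per transcript, which were summed by gene symbol and given without a test.

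Every column was assigned to a fish from its label, and 0 columns were left unassigned. The mitochondrial sequence and unplaced scaffolds were left out of the rule. limma 3.58.1 (R 4.3.3) was run on all 147188 sites that varied (percentages, 3 populations in a single fit, Benjamini-Hochberg adjustment within a contrast), and a site was called at an adjusted p under 0.05 with at least 20 points. Each fish is its own replicate. Mapped reads per fish, listed with the study, served as a covariate and filter and are not printed. Named sites were the 8 with the largest smaller difference in each direction, at most 1 per kb, the 8 stretches with most members among those of at least 4, and 2 sites just inside and outside the threshold in each direction. Members and lists were chosen with earlier results of these data known. Alternatives were other thresholds (15 and 25 points), medians, scaffolds, averaged adjacent positions, fish with at least 6000000 mapped reads, reads regressed out, a logit scale, a stricter call and leaving out each fish. The scripts that apply the rule and the limma calls were tested on simulated data. The scripts used pandas 2.3.3, numpy 2.4.6 and Python 3.11.15, and the R package data.table (version 1.17.8).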

Additional observations from a re-analysis of the deposited data

Results flagged for a closer look

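In the RNA of the livers, 1 littoral fish stood apart from the other 3 in the summed level of the leukocyte markers, with 500.9 TPM against 188.7 TPM in the next highest (Dixon's test for a far value, 95% level). Nearly all of its sum was the single gene cd74, at 476 TPM. This fish, replicate 6, was at 1.04 on the scale of the private sites and at 0.646 with the sites chosen without it, within the range of the littoral fish. A total of 15 sums were examined, and chance flags about 1 in 20.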

How the results depend on the processing

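The number of private sites followed the threshold, with 915 sites at 15 points (648 lower, 267 higher) and 149 at 25 points (112 lower, 37 higher). With population medians 761 sites met the rule (552 lower, 209 higher), of which 307 were members, and at NC_036781.1:22091827 and NC_036798.1:2587234 the smaller difference was -82.6 and 64.1 points. Including unplaced scaffolds (424 sites), averaging adjacent positions (357), keeping fish with at least 6000000 mapped reads (407) or regressing reads out (373) stayed within 1.5 times of the 386. The share of lower sites among those meeting the rule was between 70.8 and 75.2% in these settings, which draw on the same fish. It varied more among members called in both littoral contrasts, given below. Leaving out each fish gave 369 to 494 sites (268 to 359 lower, 97 to 135 higher), 43.5 to 49.4% of them with another member within 1 kb. Without littoral replicate 1 the count was 494. Placed on sites chosen without them, littoral fish averaged 0.651, benthic fish 0.177 and riverine fish 0.0853.

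With an adjusted p under 0.01 and 25 points, 5 members (1.30%) were called between benthic and riverine fish, against 2.29% of all tested sites. On the logit scale both littoral contrasts were called at 21 members, 11 of them lower in littoral fish, against 0.0149% of all tested sites. Among fish with at least 6000000 mapped reads they were called at 13, 10 of them lower, against 0.0102%. With log10 mapped reads as a covariate they were called at 31, 17 of them lower, against 0.0224%. The stricter call gave 13, 6 of them lower, against 0.00951%. Leaving out each fish gave 11 to 18 members (2.85 to 4.66%) called between benthic and riverine fish, against 3.53 to 4.43% of all tested sites. In both littoral contrasts it gave 30 to 52 members (7.77 to 13.5%), against 0.0224 to 0.0414%. For each littoral contrast alone, settings were added after seeing the data. Among fish with at least 6000000 mapped reads 38 members (9.84%) were called between littoral and benthic fish, against 0.803% of all tested sites. Between littoral and riverine fish 79 members (20.5%) were called, against 0.501%. On the logit scale these counts were 73 members (18.9%), against 1.44% of all tested sites, and 95 (24.6%), against 0.697%. With log10 mapped reads as a covariate they were 92 (23.8%), against 1.87%, and 95 (24.6%), against 0.647%. Leaving out each fish gave 81 to 128 members (21 to 33.2%), against 1.62 to 2.55% of all tested sites. For littoral against riverine fish it gave 100 to 112 (25.9 to 29%), against 0.694 to 0.792%. Of 608 recomputed differences at named sites 0 changed sign, and 2 moved by more than the SD between littoral fish. These sites were picked for the largest differences, and most settings left out a single fish. A change of sign was therefore hardly possible, and nothing is read from its absence. The causes were not tested. The expression of genes near the sites was not run, since no annotation of the assembly was used. No paired analysis was possible because the libraries carry fish names and no numbers shared between populations.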

Other observations

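On the unplaced scaffolds, which the choice of sites left out, 38 of 16737 common sites (0.227%) met the same thresholds. Littoral fish had the lower level at 18 and the higher level at 20 of them. They lay on 26 scaffolds, and the largest smaller difference was 41.4 points.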
